A study of Mus musculus with 12 samples.

Results

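The regions described here are the tallest stretches of open chromatin that every ATAC-seq library of this series shared. They were selected on their measured signal. Peaks of the 6 ATAC-seq peak lists that shared at least 1 bp were merged into 114463 regions, of which 33531 held a peak in every list and 32845 of those were autosomal. Height means the tags of the highest peak that a library had in a region, on the authors' scale of 10000000 tags. The 2462 autosomal regions whose mean height over the 6 libraries was at least 200 were kept and are called members below. The other 30383 autosomal regions with a peak in every list are called the other shared regions. A further 27 regions past the same height lay outside the autosomes (18 on X, 1 on Y, 2 on the mitochondrial genome and 6 on unplaced scaffolds) and were not kept.

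The cells were mouse Th2 cells, helper T cells that secrete type 2 cytokines in allergic inflammation. Libraries carried 1 of 2 genotype labels, WT and cKO (conditional knockout), with 3 libraries of each in ATAC-seq and 3 of each in RNA-seq, 12 in all. The labels name neither the deleted gene nor the promoter that drove the recombinase, and give no age, sex, treatment or time, so cKO-labelled is used below for the second group. They give the cell type as T cell, with no word on whether libraries came from separate animals, so each p-value measures only the spread between these libraries. The title of the series names NRF2, the antioxidant transcription factor encoded by Nfe2l2.

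In ATAC-seq a transposase inserts sequencing adapters where DNA is not wrapped tightly around nucleosomes. Promoters of widely expressed genes are often rich in CpG dinucleotides, are kept free of nucleosomes around the transcription start and rank among the most accessible sites of a cell. Enhancers, which act from a distance, are usually less accessible and differ more between cell types.

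The promoters of 8 members show what the DNA of these regions looks like, and each is the stretch of 250 bases before the gene's start, 5′ to 3′ on the gene's strand, from RefSeq (GRCm38.p6). Capitals mark matches to any of 12 short motifs on either strand. Junb, Sin3a, Jund, Brd2 and Ing1 belong to the tallest members; Dcaf6 holds the ZBTB33 motif on both strands; Nabp1 was higher and Il2 lower in the cKO-labelled libraries under all 4 scalings described below.
Junb: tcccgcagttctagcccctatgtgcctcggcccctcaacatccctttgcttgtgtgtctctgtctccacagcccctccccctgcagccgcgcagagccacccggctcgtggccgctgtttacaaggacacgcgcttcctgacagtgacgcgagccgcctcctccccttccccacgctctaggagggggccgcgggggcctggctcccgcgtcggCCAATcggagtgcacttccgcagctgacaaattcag
Sin3a: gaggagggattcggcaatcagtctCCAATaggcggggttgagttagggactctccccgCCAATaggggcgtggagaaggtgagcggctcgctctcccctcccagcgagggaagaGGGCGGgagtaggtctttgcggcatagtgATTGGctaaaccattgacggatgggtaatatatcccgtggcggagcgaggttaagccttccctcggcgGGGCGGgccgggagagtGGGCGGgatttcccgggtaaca
Jund: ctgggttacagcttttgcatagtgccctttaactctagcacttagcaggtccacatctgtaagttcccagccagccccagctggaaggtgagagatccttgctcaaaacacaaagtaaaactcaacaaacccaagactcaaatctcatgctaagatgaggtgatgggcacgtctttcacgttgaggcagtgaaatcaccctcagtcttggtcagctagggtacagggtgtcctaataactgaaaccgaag
Brd2: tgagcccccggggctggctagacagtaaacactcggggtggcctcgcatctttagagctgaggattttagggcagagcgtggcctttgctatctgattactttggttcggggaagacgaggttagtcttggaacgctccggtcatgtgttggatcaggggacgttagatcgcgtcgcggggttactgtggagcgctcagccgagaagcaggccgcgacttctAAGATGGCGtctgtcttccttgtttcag
Ing1: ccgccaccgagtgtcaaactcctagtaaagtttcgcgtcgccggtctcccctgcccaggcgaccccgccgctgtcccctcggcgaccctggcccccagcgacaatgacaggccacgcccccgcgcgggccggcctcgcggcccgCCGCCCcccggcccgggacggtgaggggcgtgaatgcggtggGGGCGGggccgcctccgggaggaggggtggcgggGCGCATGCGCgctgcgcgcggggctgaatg
Dcaf6: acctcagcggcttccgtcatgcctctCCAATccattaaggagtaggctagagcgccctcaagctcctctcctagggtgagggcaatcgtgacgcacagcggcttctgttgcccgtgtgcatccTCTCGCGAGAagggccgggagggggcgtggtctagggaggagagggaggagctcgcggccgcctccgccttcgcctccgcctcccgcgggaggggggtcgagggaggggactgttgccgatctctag
Nabp1: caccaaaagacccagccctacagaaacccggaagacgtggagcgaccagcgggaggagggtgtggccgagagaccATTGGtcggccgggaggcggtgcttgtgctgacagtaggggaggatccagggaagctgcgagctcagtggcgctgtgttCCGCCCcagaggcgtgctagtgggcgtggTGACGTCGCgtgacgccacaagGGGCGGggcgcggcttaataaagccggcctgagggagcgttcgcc
Il2: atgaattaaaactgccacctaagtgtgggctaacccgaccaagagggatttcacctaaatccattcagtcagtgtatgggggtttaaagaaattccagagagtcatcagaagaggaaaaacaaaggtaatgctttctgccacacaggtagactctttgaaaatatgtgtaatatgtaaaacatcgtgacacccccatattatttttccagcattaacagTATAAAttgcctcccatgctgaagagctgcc

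The Sin3a window (chr9:57076126-57076375, plus strand) held 3 CCAAT boxes, the motif of the factor NFY, and 3 GGGCGG boxes, the motif of the SP and KLF factors. The Brd2 window (chr17:34119901-34120150, minus strand) held the YY1 motif AAGATGGCG and the Junb window (chr8:84978749-84978998, minus strand) 1 CCAAT box. Ing1 (chr8:11556207-11556456, plus strand) had overlapping NRF1 motifs, GCGCATGCG read on both strands, beside 2 GGGCGG boxes. Dcaf6 (chr1:165460464-165460713, minus strand) held TCTCGCGAG on both strands and Nabp1 (chr1:51478400-51478649, minus strand) the antioxidant response letters TGACNNNGC. These 6 windows were 56.4 to 77.6% G or C with 18 to 36 CpG pairs each. The other two were poorer in CpG. The Il2 window (chr3:37125955-37126204, minus strand) had 40.4% G or C, 2 CpG pairs and a TATAAA box, and the window before the listed start of Jund (chr8:70697489-70697738, plus strand), one of the tallest members, had 47.6% G or C, 3 CpG pairs and no motif match.

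Most members were much like each other in height, with a few far above. The median of the mean heights was 280.8 and the quartiles 233.0 and 370.4, with 1410 members below 300, 490 at 400 or more and 22 at 1000 or more. The member next to the threshold on the inside lay at Mterf3, a mitochondrial transcription factor gene, followed by Rhbdf2 and Qtrt2, all at 200 after rounding. Just outside lay Hes1, a Notch target gene, which also rounds to 200, then Atg12 and Pmepa1 at 199.9. Members were 777 to 59112 bp long with a median of 2816 bp, against 1423 bp for the other shared regions, and 1887 of them held a single peak in every library. A taller peak is often a longer one, since height counts all tags of a peak. Per kb of peak the members had a median of 130.4 tags and the other shared regions 29.3, and 1678 members (68.2%) would also have been among the same number of autosomal regions ranked highest by tags per kb.

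Libraries ranked the members much alike. Of the 100 tallest members of each library, 62 were common to all 6, and Spearman's rho between libraries over the 2462 members ran from 0.74 to 0.95, given as a description since the members share these libraries and were selected on them. WT library 2 stood apart. It held 18327127 tags, the most of the 6 (the others 13149952 to 17728414), but only 25.22% of them lay in peaks, against 34.87% to 38.28% elsewhere. Its height was the lowest of the 6 at 2385 members, with a median ratio of 0.63 to the mean of the other WT libraries (quartiles 0.58 and 0.68), and 0.71 at the other shared regions. The number of members at 200 or more was 2351, 875 and 2213 in the WT libraries and 2425, 2439 and 2416 in the cKO-labelled ones.

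**Figure D1:**
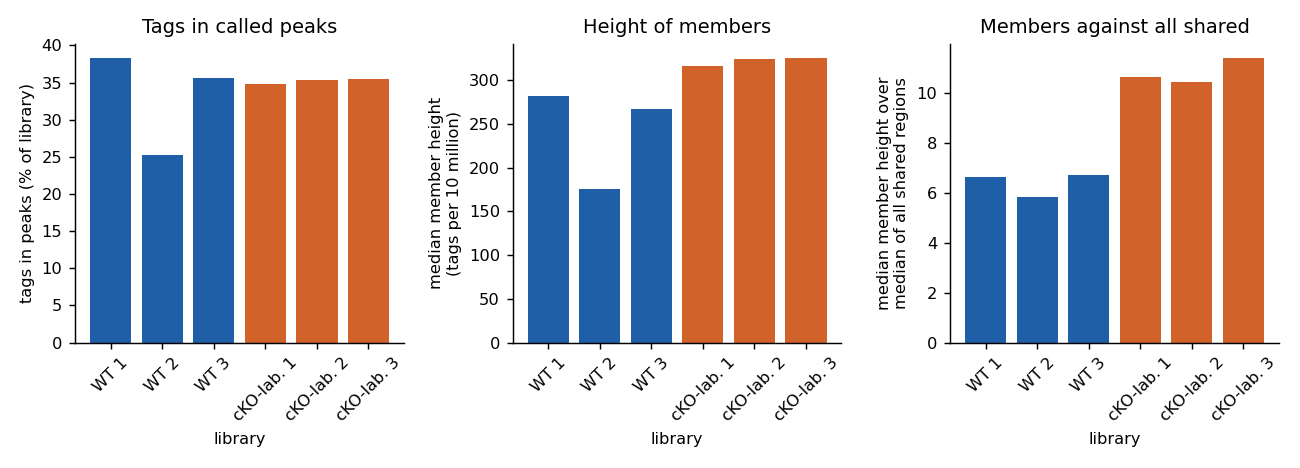
Bars show, for each ATAC-seq library, the share of tags in called peaks (left, %), the median height of the 2462 members (middle, tags per 10000000) and that median divided by the median height of all shared regions (right). WT library 2 is lowest in all 3 panels, and the ratios of the cKO-labelled libraries (10.45 to 11.41) lie above those of the WT libraries (5.85 to 6.71).

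The tallest member by far covered Rn18s-rs5, a ribosomal RNA sequence, and AY036118 at chr17:39842664-39849020. Its height was 86131, 48512 and 81482 in the WT libraries and 114106, 108595 and 120189 in the cKO-labelled ones, which is 0.485 to 1.2% of all tags of a library. Its mean density was 15 tags per bp, although the file headers state that at most 1 tag per bp was considered. Ribosomal RNA genes exist in many near-identical copies, and how reads with several matches were placed is not given in the sources used here, so this height is uncertain.

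Behind it came short, dense regions far from gene ends. Of the 8 members with 1000 or more tags per kb, 6 lay more than 5 kb from any gene end. One lies within the predicted gene Gm36876 (chr11:109011398-109012371) with heights of 3071, 1665 and 2948 in WT and 3994, 3651 and 4205 in cKO-labelled libraries. Others lie inside Cdk8 (chr5:146260752-146261539, mean 1656), Cmss1 and Filip1l (chr16:57390873-57391895, mean 1591) and Zc3h7a (chr16:11143666-11144628, mean 1347), or near the predicted genes Gm8797 (chr3:5860170-5861005, mean 2298) and Gm33780 (chr2:98666244-98667584, mean 2486). These 6 regions were 787 to 1340 bp long. Their mean densities were 1.72 to 3.88 tags per bp, again above the stated 1 tag per bp, so these heights are uncertain too. The Gm33780 region was 2522, 2790 and 2453 in WT and 2489, 2139 and 2526 in cKO-labelled libraries. WT library 2 was thus its highest of the 6, at 1.12 times the other WT libraries, where at the other 5 it stood at 0.52 to 0.58 times.

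Among the 22 members at 1000 or more, 13 had a coding gene end inside them or at most 1 kb away. The tallest of them covers Junb, an AP-1 subunit, and Prdx2 (chr8:84973666-84987050), at 1764, 1034 and 1722 in WT and 1987, 2038 and 1241 in cKO-labelled libraries. Next came Sin3a, the scaffold of a histone deacetylase complex (chr9:57071234-57077757), at 1284, 848.5 and 836.5 against 1658, 1704 and 1226. The groups overlapped in height at both regions, and the third cKO-labelled library was the lowest of its group at both. That library had 2 peaks at each region, where the other cKO-labelled libraries had 1. At Sin3a the third WT library had 2 peaks as well. Per kb of peak the third cKO-labelled library was the highest of the 6, at 166.5 tags for Junb and 302.2 for Sin3a. Jund (mean 1195), the bromodomain gene Brd2 (1187), the chromatin reader gene Ing1 (1167), the NF-kappaB inhibitor gene Nfkbia (1107), the transcription factor gene Sp1 (1102), the T cell receptor alpha constant region Trac (1063), the MAP kinase phosphatase gene Dusp2 (1054), Cic (1027) and Mob3a (1013) followed. A member over Supt4a and Mir142, a microRNA gene of blood cells, had a mean of 1081. The longest member, 59112 bp over the Ugt1a cluster (chr1:88211443-88270555), reached 1173 with only 25.9 tags per kb.

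**Figure D2:**
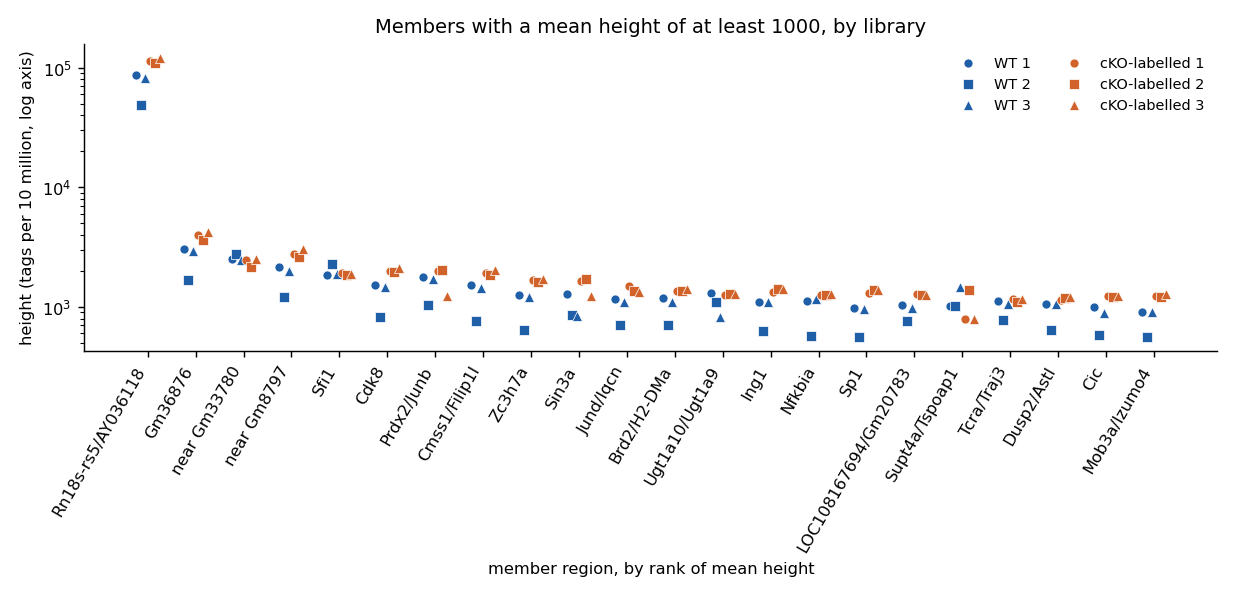
Points are the heights (tags per 10000000, log axis) in each of the 6 libraries of the 22 members with a mean height of at least 1000, in order of rank and named by genes they overlap or lie near. The Rn18s-rs5 region lies far above the rest. WT library 2 is lowest at most regions but not at Sfi1, Sin3a, the Ugt1a cluster, Supt4a or near Gm33780.

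Only 13 members had WT library 2 above both other WT libraries. They include a region at Fau-ps2 inside Sfi1 (1864, 2277 and 1875 in WT and 1903, 1848 and 1882 in cKO-labelled libraries), the Nfat5 promoter (249.9, 320.0 and 210.3 against 292.8, 452.9 and 311.4), B3gnt2 and Bcl2l1. These members were named after their values were seen.

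Members were promoters in the main. Of the 2462, 2100 (85.3%) reached to 1 kb or less from where a protein-coding gene begins or ends and 1867 (75.8%) within 1 kb of a known start, against 31.3% and 24.1% of the other shared regions. A longer region meets more gene ends. Among regions of like length (medians 2437 and 2343 bp) the shares at a coding gene end were 87.8% of 947 members and 47.2% of 5314 others. Only 157 members (6.38%) lay more than 5 kb from every gene end, against 43.2% of the others. Starts of coding genes on both strands, as in a bidirectional promoter, fell at 338 members (13.7%) and 1.78% of the others, and 608 members (24.7%) held ends of 2 or more coding genes. Across all autosomal shared regions the share at a coding gene end rose with height, from 12.5% at heights of 10 to 20 to 50.1% at 50 to 100 and 88.2% at 400 or more. Members per 100 coding genes ran from 8.19 on chromosome 2 to 14.9 on chromosomes 12 and 15.

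Some members did lie deep inside or between genes. The 4 farthest from a gene end were the Gm8797 region (108875 bp), a region inside Prr5l (82939 bp, mean height 309.3), one inside Rad51b (141491 bp, 208.3) and one inside Bach2, a repressor that restrains effector differentiation of T cells (135646 bp, 206.8). The Bach2 region was 218.2, 175.7 and 239.9 in WT and 189.7, 217.4 and 199.6 in cKO-labelled libraries, so the groups overlapped. Its log2 change was -0.42 after quantile normalization (limma adjusted p = 0.0318), but 0.25 with medians subtracted (0.069), -0.05 with no subtraction (0.895) and -0.34 per kb with quantile normalization (0.161).

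Promoters at members were richer in G, C and CpG than those at other shared regions. RefSeq windows of 300 bases (250 before to 50 after the start) were available for 2748 starts of 2238 coding genes at members. Their median share of G or C was 65% and their median CpG ratio, observed over expected from base content, was 0.84. At the other shared regions (9005 windows) these were 61% and 0.76, and at no shared region (8332 windows) 48.7% and 0.22. Windows with GGGCGG made up 77% at members, 63.8% at the other shared regions and 19.1% at none. CCAAT was in 46.8%, 34.6% and 39%, and the NRF1 motif GCGCATGCG in 4.69%, 3.49% and 0.408%. ZBTB33 letters (TCTCGCGAG) were in 2.18%, 1.28% and 0.132%, and YY1 letters (AAGATGGCG) in 3.42%, 2.89% and 0.168%.

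A few motifs were less frequent at members than at the other open promoters. The ETS motif CCGGAAGT was in 7.71% of windows at members and 8.72% at the other shared regions, the AP-1 motif TGANTCA in 3.31% and 4.98%, TATAAA in 5.49% and 6.51%, and the RUNX motif TGTGGTT in 2.69% and 3.58%. All but the ETS motif of these were most frequent where no shared region lay, TATAAA at 21.8%, TGANTCA at 10.5% and TGTGGTT at 6.75%, against 0.756% for CCGGAAGT. For 3 further motifs members and other shared regions lay close together. The antioxidant response letters TGACNNNGC were in 15.3%, 14.2% and 11.1%, the E-box CACGTG in 10.9%, 10.2% and 4.37%, and the CRE TGACGTCA in 3.49%, 3.33% and 0.792%. Over all 20085 windows GGGCGG was in 47%, CCAAT in 38.1%, TGACNNNGC in 13.1%, TATAAA in 12.7%, CACGTG in 7.89%, TGANTCA in 7.06%, CCGGAAGT in 5.28%, TGTGGTT in 4.77%, GCGCATGCG in 2.37%, TGACGTCA in 2.3%, AAGATGGCG in 1.83% and TCTCGCGAG in 0.926%. Both strands were searched, and each match is a description of letters, not a bound site.

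**Figure D3:**
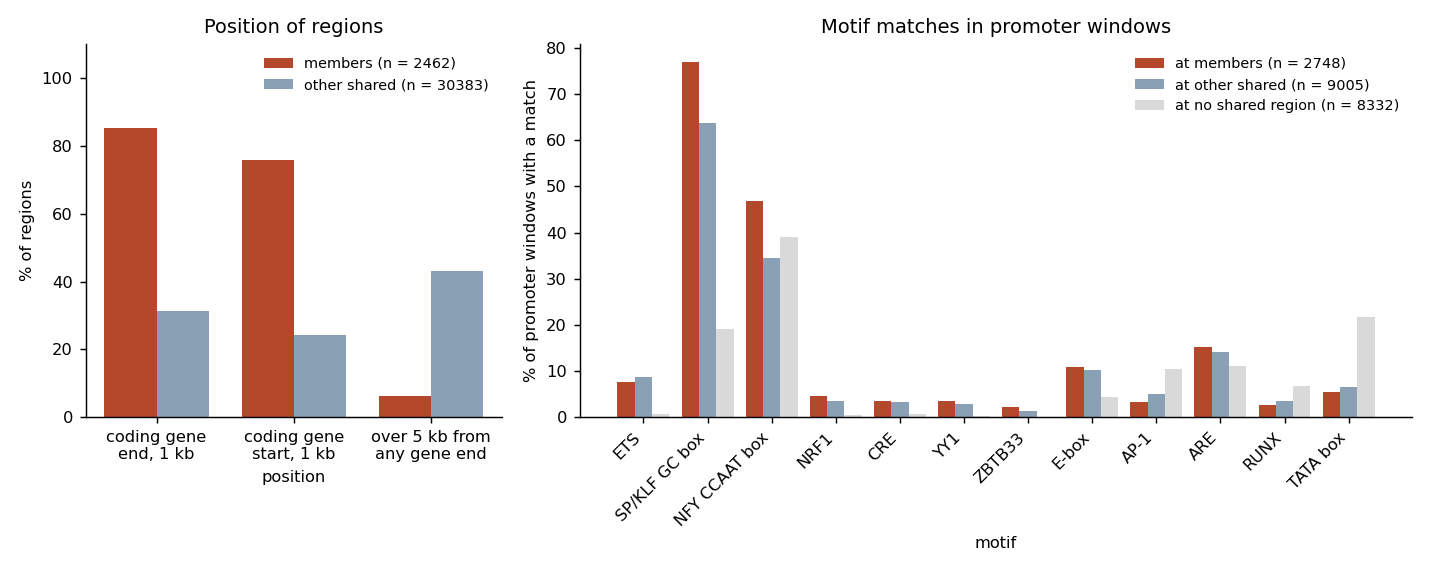
Left, the percentage of the 2462 members and of the 30383 other shared regions near coding gene ends, near coding gene starts and far from any gene end. Right, the percentage of promoter windows of 300 bases with at least 1 match to each motif, at members, at other shared regions and at no shared region; the GC box is in 77% of windows at members.

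The comparison of the genotypes asks whether these tallest regions differ between WT and cKO-labelled cells, and its answer turned on how libraries were put on 1 scale. Median member heights came to 281.6, 175.4 and 267.1 for WT and 316.3, 324.1 and 325.1 in cKO-labelled libraries, so the cKO-labelled libraries were higher without overlap. The medians of all shared regions went the other way, at 42.3, 30 and 39.8 for WT against 29.7, 31 and 28.5 for cKO-labelled. The ratio of the first to the second was 6.66, 5.85 and 6.71 in WT and 10.65, 10.45 and 11.41 in cKO-labelled libraries, which also did not overlap. Peaks at members held 9.12, 5.62 and 8.66% of all tags in WT and 10.6, 10.7 and 10.9% in cKO-labelled libraries. On the deposited scale, heights did not overlap between groups at 1849 members with the cKO-labelled libraries higher and at 10 with them lower; over all shared regions these shares were 13.6% and 21.8%.

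With each library's median over all shared regions subtracted, limma called 2342 members (95.1%) higher and 1 lower, cKO-labelled against WT, at an adjusted p of 0.05, where 28.0% and 5.48% of all shared regions were called. The median log2 change of members was 0.80, against 0.16 over all shared regions. With the authors' scaling to the library total alone, 193 members were higher and 2 lower (1.37% and 9.03% of all), with medians of 0.49 and -0.15. After quantile normalization 157 were higher and 202 lower (3.67% and 4.33% of all), with medians of 0.05 and 0.02. After cyclic loess 133 were higher and 261 lower (4.09% and 5.27% of all), with medians of 0.02 and 0.01. Quantile normalization and loess both force libraries to a like distribution at each height, so a shift shared by all tall regions is removed by their construction. Whether the tall regions moved as a class or the libraries differ in signal over background cannot be told apart.

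From heights of 10 to 20 upward the change rose with height. With medians subtracted, the median log2 change was 0.14 below 10 (388 regions), -0.09 at heights of 10 to 20, -0.03 at 20 to 50, 0.33 at 50 to 100, 0.58 at 100 to 200, 0.78 at 200 to 400 and 0.89 at 400 or more. After quantile normalization it stayed between -0.03 and 0.06 from heights of 10 upward. Without WT library 2 the median change of members was 0.72 with medians subtracted and 0.27 on the authors' scaling, where 1487 members were then higher and 51 lower (7.01% and 21.5% of all shared regions).

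**Figure D4:**
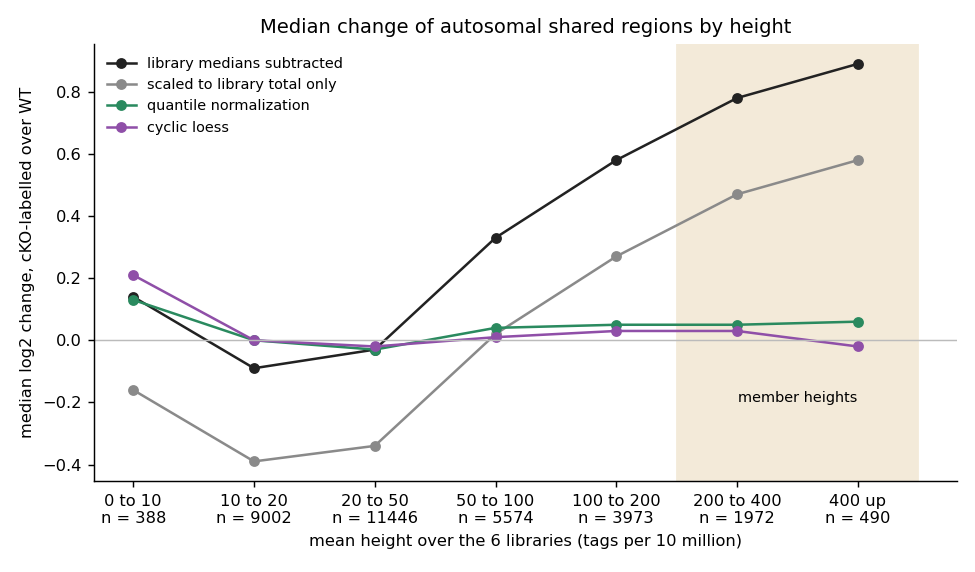
Lines give the median log2 change in height, cKO-labelled over WT, of autosomal shared regions in 7 bands of mean height, under each of the 4 scalings. The shaded bands hold the members; 2 of the lines climb to 0.89 and 0.58 at 400 or more and the other 2 stay near 0.

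Members away from coding gene ends (362) and at coding gene ends (2100) were counted apart. With medians subtracted 313 (86.5%) of the former were higher and 0 lower, against 2029 (96.6%) and 1, and with no subtraction 20 and 0 against 173 and 2. After quantile normalization 14 (3.87%) of the former were higher and 70 (19.3%) lower, with a median of -0.04, against 143 (6.81%) and 132 (6.29%) with a median of 0.06. After cyclic loess the counts were 13 and 87 against 120 and 174. Per kb of peak with quantile normalization the former had 3 higher and 7 lower and the latter 26 and 4, where 0.927% and 1.56% of all shared regions were called. The members called lower after quantile normalization were long, with a median of 5456 bp against 2163 bp for those called higher, and 5 of the 202 were also lower per kb with quantile normalization. These 5 were the Gm33780 region, H1f2, Sdhaf1, Gm25360 and Gm34450, named after their values were seen.

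Under all 4 scalings, 102 members stood higher in cKO-labelled libraries and 1 stood lower (1.03% and 2.23% of all shared regions). Of the 102, 94 lay at a coding gene end and all 102 had groups that did not overlap on the deposited scale (1849 of all members). After quantile normalization without WT library 2, 87 were also called higher (153 of all members and 2.94% of all shared regions). The 102 were selected on these same tags, so these counts only describe them. Their median log2 change was 1.06 with medians subtracted and 0.34 after quantile normalization. Per kb of peak with medians subtracted 101 were higher (2143 of all members and 22.1% of all shared regions). Per kb with quantile normalization only 3 were (29 of all members and 0.927% of all shared regions): Cd4, Cdk4 and Taok3. Cd4 and Taok3 lay below 200 in every WT library, so they were kept as members through their cKO-labelled heights.

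Cd4, the gene of the coreceptor that marks helper T cells, held by far the largest change of any member. Heights of its region (chr6:124879464-124889302, over 1 end of the gene) were 52.8, 40.7 and 43.2 in the WT libraries and 836.1, 813.1 and 787.8 in the cKO-labelled libraries. Every cKO-labelled library lay far above every WT library. The means of 812.3 ± 24.2 and 45.6 ± 6.39 (SD, n = 3 each) differ 17.8-fold, with a log2 change of 4.44 with medians subtracted (SE 0.105, limma adjusted p = 1.61e-11) and 3.99 after quantile normalization (adjusted p = 3.13e-09). It was the 1 member with a WT mean below 100, the next lowest being 154.3, and owes its place to the cKO-labelled libraries; 571 members had a WT mean below 200 and 25 a cKO-labelled mean below 200.

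The shape of the signal at Cd4 differed too. Each WT library had 3 separate peaks of 630 to 1954 bp there, which covered 3807 to 4252 bp and summed to 113.2, 77.2 and 105.9 tags. Each cKO-labelled library had 1 unbroken peak of 9408 to 9662 bp. On summed tags the difference was 8.22-fold, and per kb of peak the WT libraries had 26.6, 18.7 and 27.8 tags and the cKO-labelled ones 86.5, 85.9 and 83.7 (log2 change 1.93 with medians subtracted, adjusted p = 6.21e-06, and 1.72 after quantile normalization, adjusted p = 0.000475). Leaving out any 1 library kept the log2 change in height between 4.36 and 4.51.

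Within 30 kb of this region 9 other regions were shared by all libraries. One between Cd4 and Lag3 (chr6:124899715-124902809, not a member, mean height 145.4) was 125.7, 88.7 and 109.3 in WT and 176.3, 205.3 and 167.3 in cKO-labelled libraries, without overlap (log2 change 0.54 after quantile normalization, adjusted p = 0.0158). The region at Ptms was also higher (0.37, adjusted p = 0.0222), and the other 7 did not pass after quantile normalization. Cd4 RNA was 2274, 1786 and 1804 normalized counts in WT and 3400, 2029 and 3968 in cKO-labelled libraries (log2 change 0.63, limma adjusted p = 0.259). Regulatory DNA of Cd4 is a common driver of Cre in T cell deletions. The labels do not name the driver used here, and any part of transgene DNA in these tags was not tested.

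With medians subtracted, 71 of the 102 tied at an adjusted p of 3.14e-05, so the 7 regions described next are examples from among these and not the most changed. They were promoters with changes of about 1 on the log2 scale with medians subtracted and 0.26 to 0.37 after quantile normalization, while Mpp5 and Taok3 had 0.50. Rab1a, a GTPase gene of transport from the endoplasmic reticulum to the Golgi (chr11:20200493-20202657), was 475.2, 262.5 and 479.8 in WT and 719.8, 739.5 and 727.8 in cKO-labelled libraries (1.20 and 0.37, adjusted p = 3.14e-05 and 0.0122). Cdk4, the G1 cyclin-dependent kinase gene (chr10:127062746-127065181), was 337.4, 191.8 and 304.9 against 477.4, 483.7 and 489.0 (1.14 and 0.35, adjusted p = 3.14e-05 and 0.0119). Cul3, the ubiquitin ligase scaffold that marks NRF2 for degradation (chr1:80339014-80341663), was 299.7, 174.1 and 264.3 against 392.9, 413.2 and 438.8 (1.09 and 0.33, adjusted p = 3.14e-05 and 0.0184). In all of these every cKO-labelled library lay above every WT library and WT library 2 was the lowest.

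Nabp1, a single-stranded DNA binding protein gene whose promoter is printed above, was 296.7, 170.2 and 283.5 in WT and 393.6, 430.1 and 423.6 in cKO-labelled libraries (1.08 and 0.32). P4ha1, a collagen hydroxylase gene, was 242.3, 154.1 and 229.8 against 357.3, 338.2 and 340.3 (1.06 and 0.33). Hmg20b and Shmt1, a folate enzyme gene, completed this set, with 0.26 and 0.37 after quantile normalization. The Shmt1 region had a mean height of 157.8 in WT and 254.1 in cKO-labelled libraries, so it too was kept through the latter. RNA of none of these genes passed the test. Rab1a RNA was 981.0 ± 132.9 normalized counts in WT and 926.1 ± 61.3 in cKO-labelled libraries, Cdk4 RNA 2192 ± 588.5 and 1837 ± 141.7, and Cul3 RNA 692.5 ± 64.8 and 1049 ± 105.7 (SD, n = 3; limma adjusted p = 0.895, 0.679 and 0.156).

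The 1 member that was lower under all 4 scalings covers Il2, the gene of the T cell growth factor interleukin 2. Its heights (chr3:37118242-37131153) measured 431.8, 350.3 and 433.3 for WT and 239.7, 125.8 and 206.1 for cKO-labelled, so every cKO-labelled library lay below every WT library. The log2 change was -0.82 with medians subtracted (SE 0.188, adjusted p = 0.0036), -1.13 without, -1.53 after quantile normalization and -1.57 after loess. Peaks were cut differently there. Each WT library had 1 peak of 12.3 to 12.9 kb and the cKO-labelled libraries had 3, 4 and 2, and on summed tags the log2 change was -0.11 (adjusted p = 0.393). Per kb of peak the region had 33.5, 28.4 and 35.0 tags in WT and 31.9, 28.9 and 25.2 in cKO-labelled libraries (log2 change -0.03 with medians subtracted, adjusted p = 0.934), and the groups overlapped. Il2 RNA was 3980 ± 173.7 normalized counts in WT and 3395 ± 257.4 in cKO-labelled libraries (SD, n = 3; adjusted p = 0.502).

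**Figure D5:**
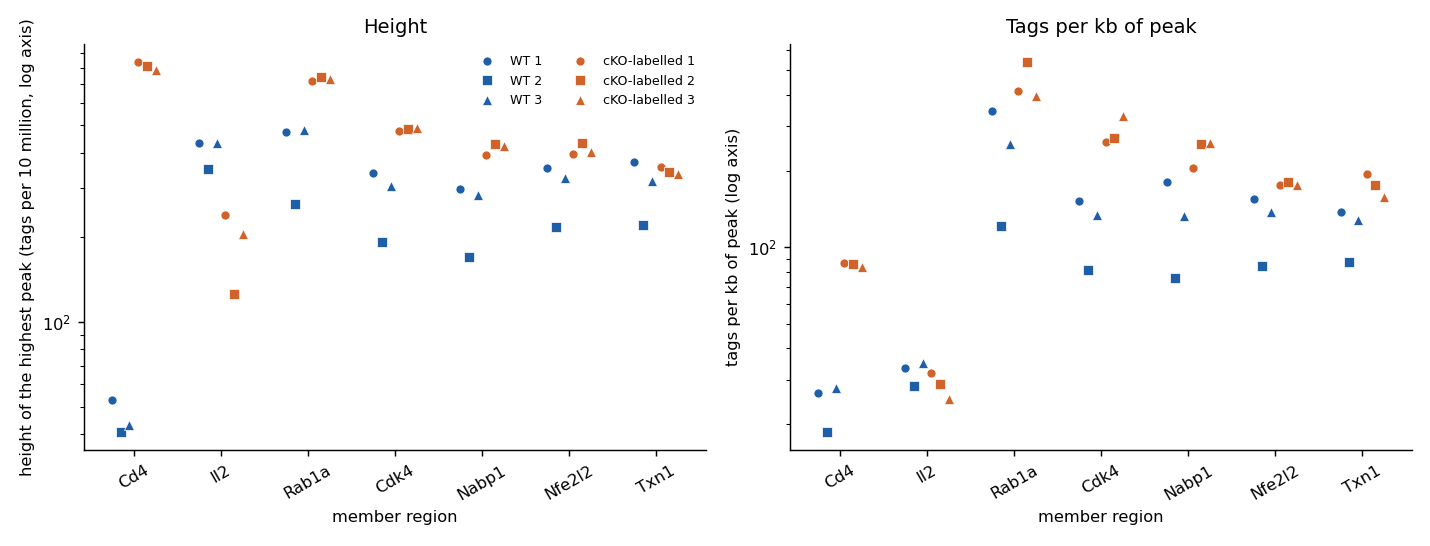
Points are the 6 libraries at 7 member regions, as height (left, tags per 10000000) and as tags per kb of peak (right), both on log axes. At Cd4 the groups lie far apart in both panels, at Il2 they separate in height but overlap per kb.

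Tnfsf8 also had peaks cut differently between libraries. Tnfsf8, the CD30 ligand gene (chr4:63836224-63864028), was 298.9, 242.3 and 834.3 in WT, where the third library had 1 peak and the others 5 and 4, and 221.1, 297.3 and 198.5 in cKO-labelled libraries, where it had 8, 6 and 7. Its log2 change after quantile normalization was -1.18 (adjusted p = 0.0404) in height and 0.04 (0.924) per kb. With medians subtracted it was -0.43 (0.282), and between -0.72 and 0.06 with any 1 library left out. Over all members, 5 had a change above 0.5 after quantile normalization and 67 one below -0.5, and the spread of the changes was 0.23 (SD over members).

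By role, the members held much of the immediate early and RNA-handling gene sets. Of 20665 autosomal coding genes, 2665 (12.9%) had a member within 1 kb. From a list of AP-1 and immediate early genes, which respond first to receptor signals, 27 of 34 did (79.4%). The Dusp2 region had a height of 920.8 ± 242.9 for WT and 1188 ± 37.8 for cKO-labelled, and Zfp36, which makes an mRNA decay factor, one of 860.8 ± 214.1 and 1038 ± 386.2 (SD, n = 3). At Zfp36 the third cKO-labelled library had 3 peaks and a height of 596.2, where the other cKO-labelled libraries had 1 peak each. Per kb of peak that library was the highest of the 6, at 104.2 tags. With medians subtracted, where 95.1% of all members were higher, 26 of the 27 regions were. After quantile normalization 0 were higher and 3 lower, with a median of -0.03 (members 0.05). NF-kappaB genes had members at 10 of 16: Nfkb2 at 599.0 ± 152.8 and 873.7 ± 6.94, Rel at 507.8 ± 125.1 and 742.2 ± 13.9, and Relb at 424.3 ± 86.3 and 609.3 ± 11.6. After quantile normalization their changes were 0.04, 0.05 and 0.01, and 1 of the 10 was lower, while with medians subtracted all 10 were higher.

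Genes for hnRNP and SR splicing factors had members at 27 of 36 (75%), histone variants and chromatin regulators at 19 of 27, heat shock chaperones at 13 of 18 and hosts of small nucleolar RNAs with nuclear noncoding RNAs at 11 of 20. With medians subtracted 95.1% of all members were higher. So were all 27 splicing factor, 19 of 19 chromatin and 12 of 12 chaperone regions, and 10 of 11 regions of the last list. After quantile normalization, where 6.38% of all members were higher and 8.2% lower, 4 of the 27 splicing factor regions were higher and 1 lower, and 3 of the 12 chaperone regions were higher and 0 lower. Hspa8, the constitutive HSP70 gene, was 587.9 ± 184.6 in WT and 981.7 ± 45.5 in cKO-labelled libraries (0.25 after quantile normalization, adjusted p = 0.0359), and Hspa5, the chaperone of the endoplasmic reticulum, 327.0 ± 94.5 and 550.6 ± 31.2 (0.29, 0.0239). Srsf2 was 455.4 ± 139.0 and 742.6 ± 31.9 (0.22, 0.0551). At H2az1, a histone variant gene, heights were 342.8 ± 101.1 and 568.7 ± 11.3 (0.26, 0.0319), and 4 chromatin regions in all were higher and 1 lower. Neat1, a nuclear noncoding RNA gene, had the tallest region of the list that also holds small nucleolar RNA hosts. It was at 452.3 ± 153.6 and 498.1 ± 14.8, and its direction turned with the scaling (-0.33, 0.0401, but 0.50, 0.00541 with medians subtracted). In its list 1 region was higher and 3 lower. Hspa8 did not pass with no subtraction (0.79, limma adjusted p = 0.054) or after loess (0.10, 0.257). Per kb of peak with quantile normalization Hspa8, Hspa5 and H2az1 did not pass (0.05, 0.18 and 0.25, limma adjusted p = 0.822, 0.344 and 0.255).

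Housekeeping sets differed in how often they reached member height, although nearly all had some shared region. Translation factors had members at 15 of 30, cytosolic ribosomal proteins at 15 of 75 with a shared region at all 75, oxidative phosphorylation at 6 of 33, and ubiquitin and proteasome genes at 4 of 27. Cell cycle genes had 13 of 35, glycolysis 7 of 19, actin and migration 10 of 29 and MHC class I 7 of 16. Pabpc1, a poly(A) binding protein gene, was 496.4 ± 128.8 in WT and 804.3 ± 19.2 in cKO-labelled libraries (0.20 after quantile normalization, adjusted p = 0.0356), Ccnd2, the gene of cyclin D2, 737.5 ± 156.6 and 922.5 ± 14.4 (-0.19, 0.0262, but 0.65, 0.00015 with medians subtracted), and Atp5g1, an ATP synthase subunit gene, 296.7 ± 79.4 and 524.0 ± 20.9 (0.37, 0.00859). The counts with medians subtracted stand beside 95.1% higher over all members. There 14 of 15 translation factor, 13 of 14 ribosomal protein, 12 of 13 cell cycle, 8 of 10 actin and 5 of 7 MHC class I regions were higher and 0 lower. All 6, 7 and 4 of oxidative phosphorylation, glycolysis and the proteasome were also higher. After quantile normalization 2 translation factor regions were higher and 0 lower, 1 of the 14 ribosomal protein regions was higher and 1 lower, and 1 of the 6 oxidative phosphorylation regions was higher. For the cell cycle 1 was higher and 2 lower, for MHC class I 1 and 2, for actin and migration 0 and 1, and for glycolysis and the proteasome 0 and 0. Pabpc1 did not pass with no subtraction (0.73, limma adjusted p = 0.0617) or after loess (0.08, 0.363). Per kb of peak with quantile normalization Pabpc1 and Atp5g1 did not pass (0.20 and 0.04, limma adjusted p = 0.319 and 0.927).

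T cell genes were spread over several lists. T cell receptor signaling genes had members at 14 of 37, T cell transcription factors at 14 of 38, and IL-2 family receptors and STAT feedback genes at 9 of 17. Only 3 of 23 Th2 identity and effector genes did, namely Crlf2, Gata3 and Il4ra, while 15 of the 23 had a shared region of any height. Gata3, the master regulator of Th2 cells, was 272.9 ± 51.8 in WT and 288.9 ± 14.0 in cKO-labelled libraries, and Il4ra, the interleukin 4 receptor gene, 253.8 ± 44.5 and 253.7 ± 13.6. With medians subtracted both were higher (0.41 and 0.32, adjusted p = 0.0041 and 0.0143), and after quantile normalization both were lower (-0.34 and -0.40, 0.0268 and 0.0185), so their direction was set by the scaling. Socs1, a feedback inhibitor of cytokine signaling, was 778.5 ± 200.8 and 906.5 ± 128.2 and turned in the same way (0.55 and -0.29, 0.00391 and 0.0471). With medians subtracted, beside 95.1% higher over all members, 9 of 14 receptor signaling and 13 of 14 transcription factor regions were higher and 0 lower. For IL-2 family and Th2 regions 7 of 9 and 3 of 3 were higher and 0 lower. After quantile normalization, beside 6.38% higher and 8.2% lower over all members, 1 receptor signaling region (Cd4) was higher and 4 lower, with 0 and 3 for T cell transcription factors, 0 and 2 for IL-2 family genes and 0 and 2 for Th2 genes. In the NRF2 pathway list 4 of 26 had a member (Nfe2l2, Txn1, Ftl1 and Gpx4), of which 4 were higher and 0 lower with medians subtracted, and 0 higher and 1 lower after quantile normalization.

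Genes at members were expressed more often than others. Of the 3372 genes of the reference at members, 2858 were in the RNA table, and 94.8% of these had a mean of at least 10 normalized counts, against 88.3% of 10267 genes at the other shared regions and 49.4% of 8245 at none. All 9 T cell markers had a mean of at least 10 and summed to 0.256 to 0.321% of counts, and 4 of 6 Th2 markers did, at 0.0199 to 0.0275%. All 4 B cell markers, 3 of 5 myeloid, 2 of 5 CD8 and NK and 2 of 4 epithelial markers also reached 10, but each of these lists summed to at most 0.00435%. Of 2708 tested genes at members, limma called 2 higher and 10 lower, with 532 at an unadjusted p under 0.05 (over all genes 0.0332% were higher and 0.172% lower). The median log2 change was 0.10, and 0.06 over all genes.

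The 2 that rose were Jun and Nfe2l2. Jun, an AP-1 subunit gene, had 691.5, 577.7 and 567.3 normalized counts in WT and 1270, 1094 and 1492 in cKO-labelled cells (a log2 change of 1.06, adjusted p = 0.0425), and its region was 557.5, 339.1 and 550.4 high against 666.7, 663.3 and 709.5. The Nfe2l2 promoter (chr2:75703132-75705717) was 353.7, 217.2 and 324.0 high in WT and 396.7, 430.9 and 401.1 in cKO-labelled libraries, while its RNA rose from 157.5 ± 11.4 to 390.3 ± 63.2 normalized counts (adjusted p = 0.0438). Both regions were higher with medians subtracted (0.84 and 0.79) and had changes of -0.02 and 0.00 after quantile normalization (adjusted p = 0.852 and 0.983). RNA of these genes did not overlap between groups.

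Txn1, the thioredoxin gene, had the smallest p. Its RNA was 5248, 6315 and 5658 normalized counts in WT and 2562, 3041 and 2706 in cKO-labelled cells (a log2 change of -1.05, adjusted p = 0.0144), without overlap, and its region was 370.3, 220.7 and 318.0 in WT and 355.3, 341.0 and 334.6 in cKO-labelled libraries, which overlap. That region was higher with medians subtracted (0.52, adjusted p = 0.000921) and lower after quantile normalization (-0.26, 0.0397). Ncl, which encodes the nucleolar protein nucleolin, went from 15540 ± 1987 to 8706 ± 880.0 (adjusted p = 0.0421) with a region of 459.3, 257.8 and 471.9 against 573.9, 620.8 and 595.4. Odc1, the first enzyme of polyamine synthesis, went from 6693 ± 847.0 to 3818 ± 218.4 (0.0438), Dut, which removes dUTP, from 1232 ± 139.9 to 615.1 ± 33 (0.0421) and Ranbp1, a nuclear transport factor gene, from 2112 ± 247.4 to 1152 ± 49.7 (0.0438). Regions at Ncl, Odc1, Dut and Ranbp1 had quantile-normalized changes of 0.12, 0.17, 0.30 and -0.03, none past the threshold.

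Sec11c (2451 ± 280.1 to 1193 ± 177.2, adjusted p = 0.0421) and the small RNAs Rpph1 (481.2 ± 101.4 to 167.9 ± 47.9, 0.0438) and Bc1 (5320 ± 2028 to 1717 ± 335.0, 0.0421) also fell. The Rpph1 region is shared with Parp2 and the Bc1 region with LTO1, so height there cannot be assigned to 1 gene. In the RNA libraries the Y-linked genes Ddx3y and Eif2s3y had 116.8 to 140.5 normalized counts in WT and were listed at 0 in all cKO-labelled ones, so sex and genotype cannot be told apart in these RNA results. In ATAC-seq no library of either genotype had a peak in the part of Y that holds these genes, so the assays differ in this sign for WT, and the labels do not say whether the same animals gave both. Counts of genes at members also moved with single libraries. Without WT library 2 or 3 or cKO-labelled library 1 or 3 they were 0 higher and 0 lower in limma, with 131 to 224 and 138 to 235 genes at an unadjusted p under 0.05. Without WT library 1 they were 7 and 17, and without cKO-labelled library 2 they were 26 and 22.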

How the data were processed

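ATAC-seq and RNA-seq of WT and cKO-labelled Th2 cells were used, with 3 libraries of each genotype per assay. The authors called peaks separately in each library with HOMER findPeaks, histone style, at a Poisson p-value threshold of 0.001, per the file headers. The deposited signal of a peak is its tag count scaled to 10000000 tags. HOMER's deposited score was used only for an alternative member set, and the deposited ratio of clonal tags (fold), the authors' log2 fold changes and the authors' p-values were not used. Bowtie2 2.3.5.1, HOMER 4.11, STAR, RSEM 1.3.3, DESeq2 and edgeR and the build mm10 stand in the submitters' processing notes. The RNA signal is the authors' deposited normalized count per gene, which is not a whole number, so no count model was run; the scaling is not given in the sources used here.

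Peaks were merged and heights compared as described in the report. limma 3.58.1 (R 4.3.3, empirical Bayes with trend) was fitted to log2(height + 1) over all 33531 regions with a peak in every list, with library medians subtracted, and to log2(normalized count + 1) over 18074 genes with a mean of at least 10. Fold changes on this scale understate those of low values. Benjamini-Hochberg adjusted p-values cover all regions or genes tested, with a threshold of 0.05. In simulated data 42 and 90 of 100 regions changed by 1 and 2 on the log2 scale were recovered with 5 false calls over both sizes, and 11 and 42 of 100 genes with 2. The simulation drew independent noise for each region and held no shift shared by tall regions. Its false calls therefore do not measure the error of the calls with medians subtracted. Gene positions and promoter sequences came from RefSeq tables of GRCm38.p6, the assembly behind mm10; 79.9% of the coding genes of the table had a promoter entry, and 83.2% of RNA genes matched. Python 3.11.15, pandas 2.3.3, numpy 2.4.6, scipy 1.17.1 and matplotlib 3.10.9 were used.

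The members and the 19 gene lists were chosen with earlier results of these data known. Named regions were the 12 tallest members, up to 8 per direction called under all 4 scalings by smallest p, the 3 on each side of the threshold, the 6 tallest far from gene ends and the 4 farthest, up to 8 genes per direction whose RNA passed, up to 4 regions per gene list by height, and the 4 longest and 4 densest. The other regions named were chosen after their values were seen. Alternatives were other scalings, pseudocounts, filters, height measures, thresholds and distances, a replicate block and leaving out each library. Results at 1 further region are not reported here.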

Additional observations from a re-analysis of the deposited data

How the results depend on the processing

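The number of members followed the threshold: 3869 at a height of 150, 1052 at 300, 492 from the upper part of peaks by score, 2546 by summed tags and 2462 with peaks merged at 50 bp. The share at a coding gene end was 89.2% within 5 kb and 87.5% for members at 300 or more. The median log2 change of 0.80 became 0.49 with no subtraction of library medians, 0.05 with quantile normalization and 0.02 with loess. Without WT library 2 these were 0.27, 0.04 and 0.01, and per kb of peak 0.58, 0.03 and 0.01; both combinations were chosen after seeing the data. Leaving out 1 library gave 0.72 to 0.83. In the same order, the 2342 members called higher became 193, 157 and 133, then 1487, 153 and 73, then 116, 29 and 34. They were 1009 among members at 300 or more, and 2305 to 2349 with 1 library left out. The 1 called lower became 2, 202 and 261, then 51, 188 and 201, then 0, 11 and 19. It was 3 with a pseudocount of 5, and 1 to 5 with 1 library left out. In limma 0 were lower by summed tags, per kb with medians subtracted and at 300 or more, where 1, 0 and 0 had an unadjusted p under 0.05; per kb with no subtraction it was also 0.

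For RNA of genes at members, 2 higher and 10 lower became 6 and 4 with quantile normalization. Leaving out 1 library gave 0 to 26 higher and 0 to 22 lower, and a median change of 0.04 to 0.18. With a replicate block, 15 genes were higher and 24 lower in RNA, and 2359 members were higher and 2 lower in height, with a median of 0.80. Deviations from the group means of samples with the same number correlated at -0.03 to 0.01 in ATAC-seq and -0.06 to 0.21 in RNA-seq. Samples of unlike number gave -0.02 to 0.03 and -0.27 to 0.22. With 3 libraries per group these values cannot decide whether samples were paired. The number of libraries limits precision, and the spread between libraries, above all WT library 2, is large beside the quantile-normalized changes of most members.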
